A study of Mus musculus with 140 samples.

Results

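The 7 genes Plat, Plau, Plaur, Serpinf2, Serpine2, S100a10 and Anxa2 encode plasminogen activators, a receptor for one of them, inhibitors that act on plasmin or its activators, and a pair of partner proteins that hold plasminogen at the cell surface. They were chosen by name, as the rows of the deposited count table that carry these symbols, and they are 7 of its 34255 genes. RNA was read near its polyadenylated end, with Lexogen QuantSeq libraries, in kidneys of 28 male wild-type mice of strain C57BL6/OlaHsd, and the age of the mice is not given in the sources used here. The mice form 7 groups of 4, which are healthy controls at 0 h, and mice at 4, 24 or 72 h after sham surgery or CLP (cecal ligation and puncture, which starts sepsis from the gut). Each mouse gave 5 libraries, 4 from laser-microdissected compartments of the kidney cortex (glomeruli, arterioles, post-capillary venules and peritubular capillaries) and 1 from the kidney as a whole. The study's stated aim was to find gene expression altered by septic kidney injury in the microvessels.

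Plasminogen is a circulating proenzyme that is cut to plasmin, the protease that dissolves fibrin. Plat (tissue-type plasminogen activator, typical of endothelium) and Plau (urokinase, made in the kidney by tubule cells) make this cut, and Plaur is the membrane-anchored receptor that gathers urokinase at the cell surface. Serpinf2 (antiplasmin) is the main direct inhibitor of plasmin, made by liver and, in the mouse, by proximal tubule cells, whereas Serpine2 (a protease nexin) inhibits thrombin, plasmin and both activators. S100a10 and Anxa2 join in a complex on the cell membrane in which S100a10 offers plasminogen a binding site.

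The 140 libraries held 4.24 to 18.3 M counts (M for mega). Levels are given as CPM, counts per M of the scaled library total, and single values follow replicate numbers 1 to 4. The fitted biological coefficient of variation was 0.241 in whole kidney and 1.40 to 1.94 in the microdissected compartments. The microdissected libraries of 24 and 72 h stood apart from those of 0 and 4 h, in sham and CLP mice alike. Genes detected numbered 6534 to 9621 against 11339 to 13758 in arterioles, 8870 to 12726 against 12897 to 15114 in glomeruli, 2949 to 9816 against 10950 to 13327 in peritubular capillaries and 8357 to 11073 against 12014 to 13728 in venules, whereas whole kidney overlapped (17604 to 19042 against 18272 to 20474). In these compartments CLP and sham mice were compared within a time. Fewest were in peritubular capillaries of CLP mice at 72 h, with 2949 to 5595 genes against 7137 to 9816 in sham mice at 72 h. All libraries labelled peritubular capillaries were rich in markers of the proximal tubule (22883 to 134155 CPM summed over 10 genes) and low in those of endothelium (0.457 to 1594 CPM over 10 genes). Venule libraries held 11150 to 42441 CPM of the same tubule markers against 385 to 1535 CPM of endothelial markers. The labels call the replicates biological, and every group value below has n = 4.

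In healthy kidney the members divided between compartments. On average, Plat, Serpine2 and Anxa2 were highest in glomeruli, Serpine2 was also high in arterioles, and Serpinf2 was highest in the libraries of peritubular capillaries. Each compartment was tested against the other 3 together in the same 4 mice with edgeR and Benjamini-Hochberg adjustment over all genes, and a gene passed with an adjusted p under 0.05. In glomeruli 4 of the 7 members passed (4.19% of all genes), in arterioles 2 (7.32%), in peritubular capillaries 3 (6.14%) and in venules 0 (0.591%). In venules Serpine2 and Serpinf2 had an unadjusted p under 0.05, and DESeq2 was not run on this comparison.

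Plat (chr8:22757727-22782844, plus strand) was at 146, 426, 141 and 58.9 CPM in the glomeruli of the 4 healthy mice. Its arteriolar values were 2.24, 1.53, 34.4 and 0.341 CPM, and no peritubular or venular library exceeded 16 CPM. All 4 glomerular libraries lay above the other 12, with a log2 difference of 5.35 ± 1.03 (SE) against the other compartments together (adjusted p = 0.000335, edgeR), a 40.7-fold higher level. The spread within glomeruli was wide (193 ± 160.2 CPM, mean ± SD).

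Plau (chr14:20836660-20843385, plus strand) had no compartment in which it passed. Means ran from 10.7 ± 11.4 CPM in arterioles to 39.3 ± 29.7 CPM in peritubular capillaries (SD), so that no neighbours in the order differed beyond their spread. Plaur (chr7:24462484-24475968, plus strand) was near the limit of detection. Its 16 values ran from 0 to 7.17 CPM, and 9 of them rested on 3 counts or fewer.

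Serpinf2 (chr11:75431732-75439591, minus strand) was at 326, 314, 657 and 750.0 CPM in peritubular capillaries and at 155, 86.3, 144 and 253 CPM in venules. Arterioles (20.2 ± 21.7 CPM, SD) and glomeruli (28.8 ± 35.7 CPM, SD) were lower and overlapped each other. The peritubular libraries exceeded the mean of the others by 3.89 ± 0.55 on the log2 scale (SE; adjusted p = 3.85e-07, edgeR), and arterioles fell below it (-3.00 ± 0.72, adjusted p = 0.00319). The proximal tubule markers were likewise highest in peritubular libraries and next in venules. They summed to 69579.6 to 124492 CPM in peritubular, 27684 to 34302 in venular, 9460.4 to 17231 in arteriolar and 7922 to 10827 CPM in glomerular libraries of healthy mice (each scaled within its own compartment), and their part in the Serpinf2 values was not tested. The lower level in glomeruli (-2.51 ± 0.73, adjusted p = 0.0291) failed without the mouse as a block (-2.03, adjusted p = 0.0941) and without healthy replicate 2, 3 or 4 (adjusted p 0.11 to 0.224).

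Serpine2 (chr1:79794197-79861180, minus strand) gave 255, 369, 338 and 436 CPM in glomeruli and 278, 338, 287 and 182 CPM in arterioles. Venules (39.9, 25.5, 45.5 and 24.6 CPM) and peritubular capillaries (11.1, 11.1, 24.5 and 25.8 CPM) were lower, with no overlap between the first pair of compartments and the second. The edgeR log2 differences were 2.68 ± 0.49 for glomeruli (adjusted p = 0.000164), 2.21 ± 0.50 for arterioles (adjusted p = 0.00139) and -3.07 ± 0.66 for peritubular capillaries (adjusted p = 0.000935). Glomeruli and arterioles overlapped in their values.

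S100a10 (chr3:93555080-93564643, plus strand) had mean levels from 114 ± 71.5 CPM in venules to 184 ± 80.9 CPM in glomeruli (SD), and passed in none. One arteriolar library, replicate 2, held 459 CPM against 36.6 to 66.4 in the other 3. Anxa2 (chr9:69453620-69491795, plus strand), which overlaps the microRNA gene Mir3109 and, on the opposite strand, the antisense gene Gm16144, was at 701, 342, 532 and 619 CPM in glomeruli and 6.87, 40.8, 38.1 and 70.6 CPM in peritubular capillaries. It passed in both, higher in the former (2.20 ± 0.44, adjusted p = 0.000516, edgeR) and lower in the latter (-2.91 ± 0.58, adjusted p = 0.000343). A difference between the 2 partners in their profile over compartments was not tested. Whether strand was used in counting is not given in the sources used here, so reads of Anxa2 and Gm16144 cannot be told apart.

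**Figure D1:**
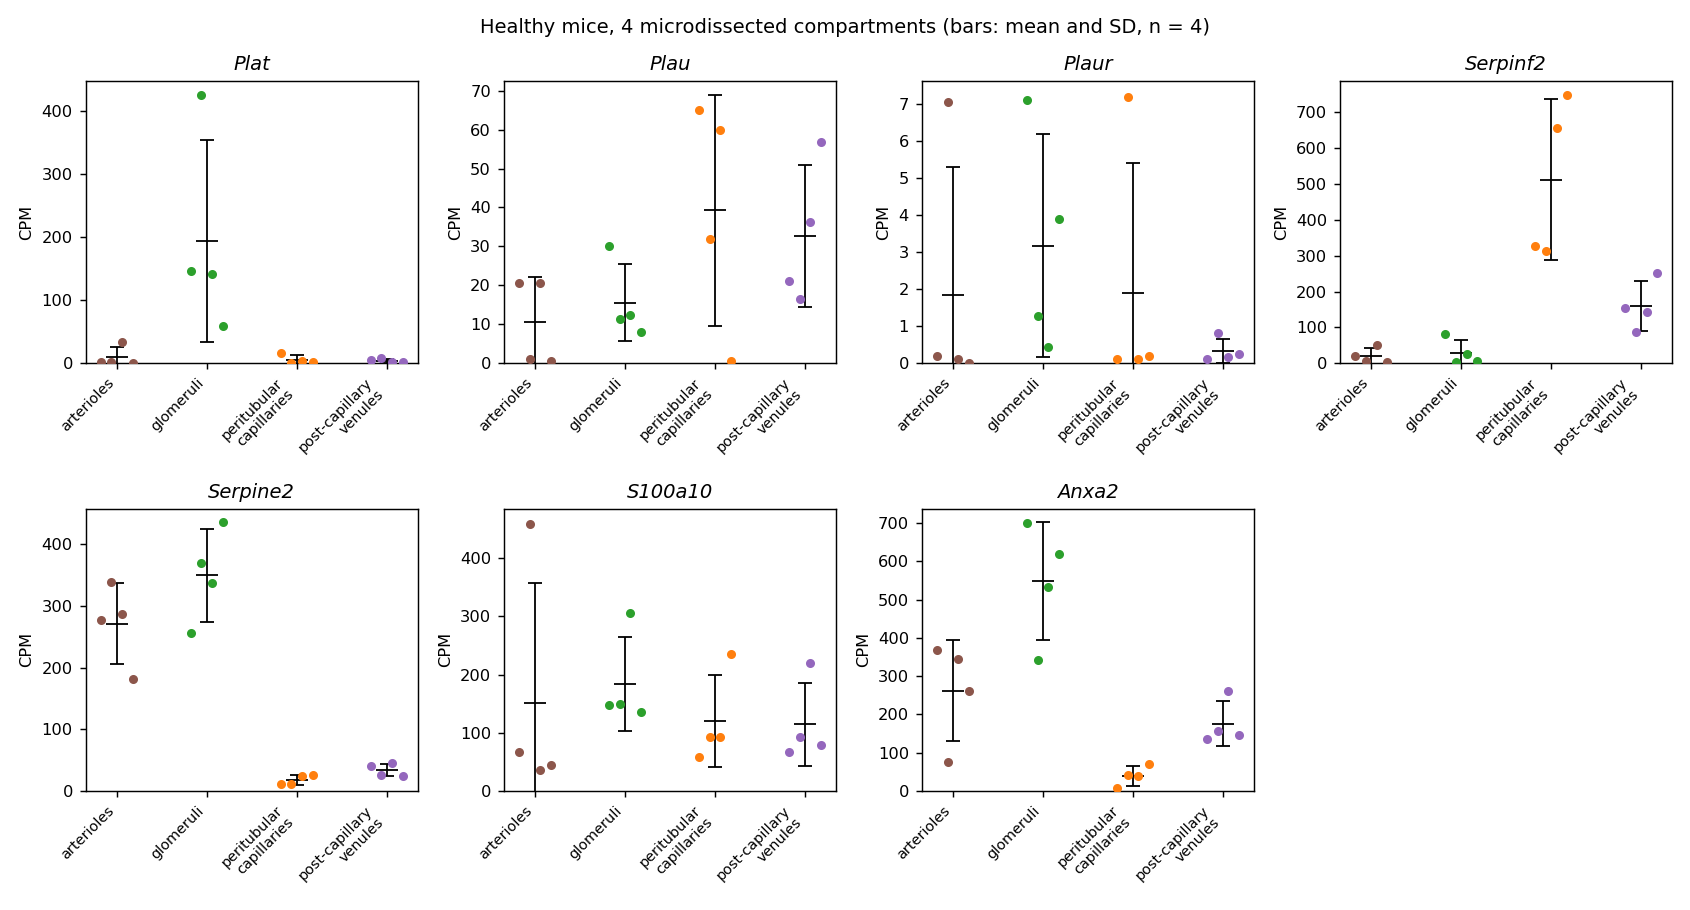
Level of each gene in the 4 microdissected compartments of healthy mice. The y axis is CPM on the common scale of the 16 libraries, each point is 1 mouse, and bars are mean and SD (n = 4). Plat, Serpine2 and Anxa2 are highest in glomeruli, and Serpinf2 in peritubular capillaries.

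Promoter stretches of the members with an entry in the RefSeq table (4 of 7, build GRCm38.p6; Plat, Plau and S100a10 had none) are shown for the inhibitors, whose levels divided most clearly between tubule-rich and vascular libraries, and for Plaur and Anxa2, which each carry an AP-1 match. Motifs were chosen after the promoters had been seen, and 7 were searched on both strands in the 250 bases before each start. They were AP-1 (TGANTCA), NF-kB (GGANTTTCC), TATA box (TATAAA), GC box (GGGCGG), FOXA (TNTTTAC), HNF1 (GTTAATNAT) and HNF4 (CAAAGTCCA). Sequences read 5′ to 3′ on the gene's strand, lie before the RefSeq start, overlap no GENCODE exon of the gene and carry motif matches in capitals. The Serpine2 stretch ends at the base before the start of 2 of the gene's 6 GENCODE transcripts and lies in an intron of 1 longer transcript, whose start bounds the gene span given above.
Serpinf2 promoter, chr11:75439592-75439751, minus strand: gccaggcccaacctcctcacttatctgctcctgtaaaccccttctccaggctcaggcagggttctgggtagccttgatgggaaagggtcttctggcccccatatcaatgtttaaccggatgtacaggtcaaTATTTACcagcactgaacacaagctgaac
Serpine2 promoter, chr1:79858697-79858915, minus strand: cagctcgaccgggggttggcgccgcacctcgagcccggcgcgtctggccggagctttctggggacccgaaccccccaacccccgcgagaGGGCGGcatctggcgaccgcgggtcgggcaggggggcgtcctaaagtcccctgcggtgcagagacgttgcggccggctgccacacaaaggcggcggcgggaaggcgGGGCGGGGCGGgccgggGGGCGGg
Plaur AP-1 window, chr7:24462399-24462435, plus strand: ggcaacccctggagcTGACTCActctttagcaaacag
Anxa2 AP-1 window, chr9:69453573-69453609, plus strand: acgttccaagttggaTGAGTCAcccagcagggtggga

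In the Serpinf2 stretch the capitals mark a FOXA match, which 10.9% of 32851 promoters hold. None of the other motifs was found in its 250 bases, the liver-type HNF1 and HNF4 matches included. The Serpine2 promoter had a GC content of 78.8%, against a median of 52.4%, and 6 GC box matches in 250 bases, 4 of them in the stretch shown and some overlapping. A GC box was present in 32.7% of promoters. The AP-1 letters in capitals in Plaur and Anxa2 occur in 6.75% of promoters. Plaur and Anxa2 also had GC boxes, and Anxa2 a TATA box (12.4% of promoters). NF-kB, HNF1 and HNF4 matches, held by 1.07%, 0.737% and 0.384% of promoters, were found in none of the 4 members. A match is a run of letters, and no binding was measured here.

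After CLP, Serpinf2 fell in whole kidney at 24 and 72 h and S100a10 rose at 24 h. Serpine2 also passed at 24 h, whereas Plat, Plau, Plaur and Anxa2 passed at no time. Against sham mice of the same time, 3 of 7 members passed at 24 h (5.28% of all 14936 genes tested), 1 at 72 h (3.89%) and 0 at 4 h (2.24%). At 4 h Plaur and Serpine2 had an unadjusted p under 0.05, and DESeq2 also called 0. The median log2 fold change of the members was 0.19 at 4 h, 0.90 at 24 h and 0.21 at 72 h, beside 0.0014, 0.024 and 0.026 over all genes. Values of CLP and sham mice did not overlap for 3 members at 4 h (Plau lower, Plaur and Serpine2 higher; 7.73% of all genes), 2 at 24 h (Serpinf2 lower, S100a10 higher; 8.15%) and 1 at 72 h (Serpinf2 lower; 9.67%).

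**Figure D2:**
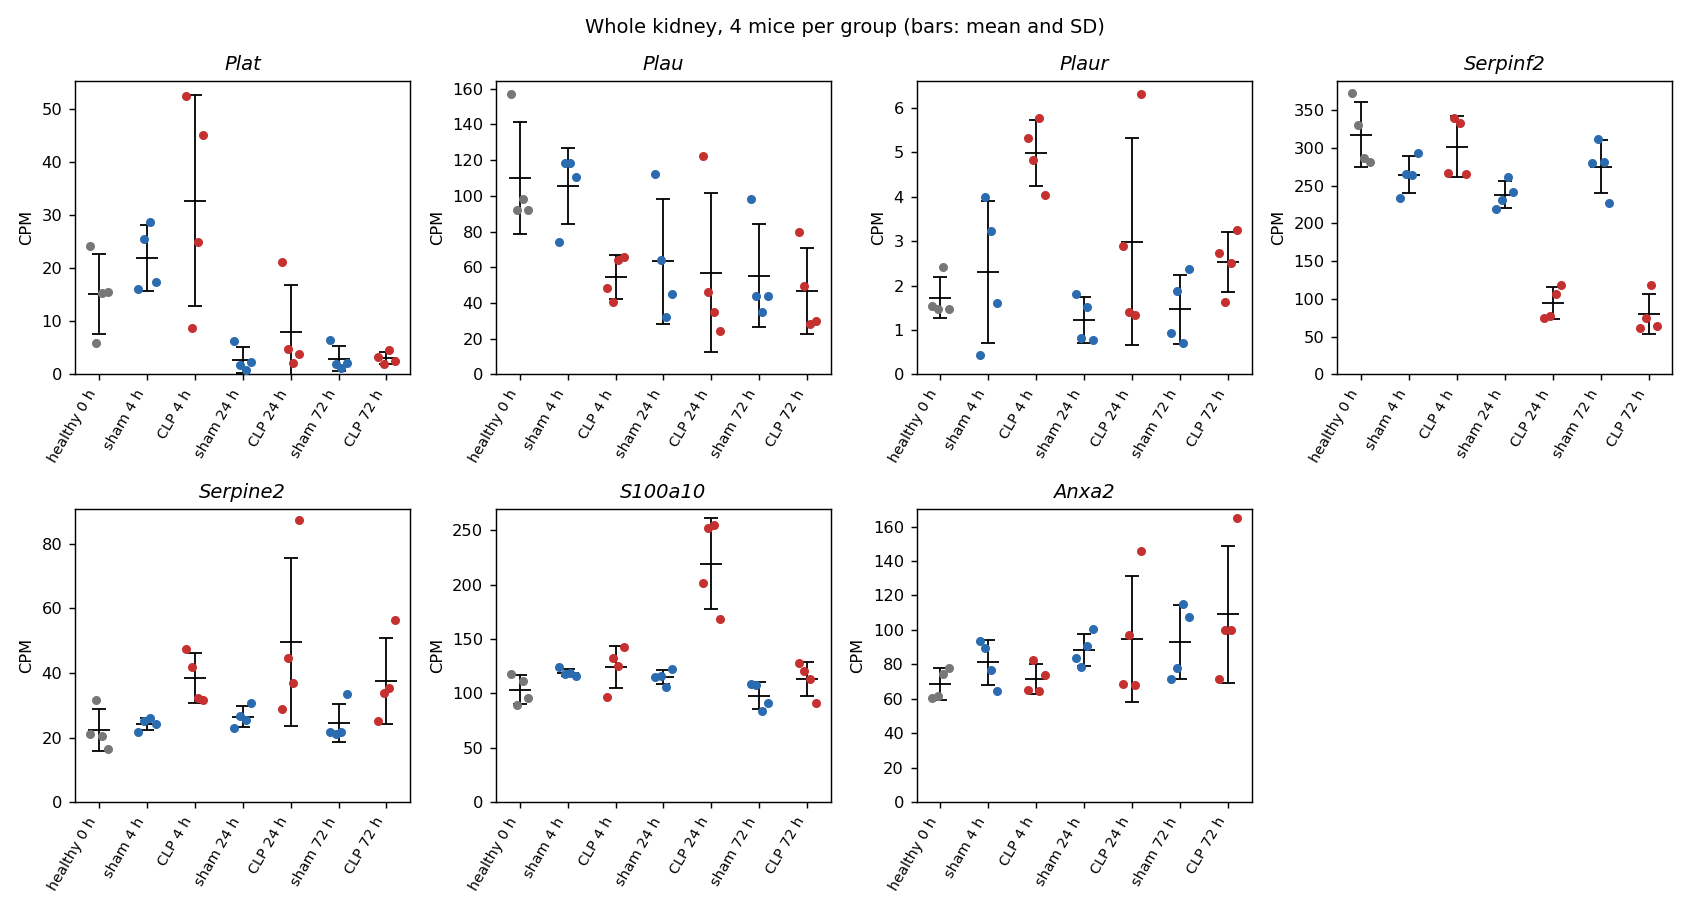
Whole kidney level of each gene in the 7 groups. The y axis is CPM, each point is 1 mouse, and bars are mean and SD (n = 4). Serpinf2 of CLP mice lies below sham at 24 and 72 h, and S100a10 lies above sham at 24 h.

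Of the activators, Plau was at 74, 118, 118 and 111 CPM in sham and 48.2, 40.5, 63.9 and 66 CPM in CLP whole kidney at 4 h. Every CLP value lay below every sham value, with a log2 fold change of -0.95 ± 0.46 (SE) that did not pass when all 28 libraries were fitted together (adjusted p = 0.489, edgeR). It passed when the 8 libraries were compared alone (-0.96, adjusted p = 0.00555). At 24 h (112, 63.9, 32.4 and 44.8 against 122, 46.3, 35.2 and 24.3 CPM) and at 72 h (log2 fold change -0.24 ± 0.46) the groups overlapped.

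Plat was at 6.37, 1.73, 0.807 and 2.30 CPM in sham and 21.2, 4.80, 2.17 and 3.93 CPM in CLP whole kidney at 24 h, a log2 fold change of 1.56 ± 0.72 (SE; adjusted p = 0.283, edgeR). CLP replicate 1 was the high library, and the groups overlapped at all 3 times. At 4 h the CLP values (52.6, 8.70, 24.9 and 45.1 CPM) spread around those of sham mice (16.1, 25.6, 28.7 and 17.4 CPM).

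Whole kidney Plat differed between sham mice of 24 and 72 h and healthy mice. Surgery, time and the split between libraries of 0 and 4 h and those of 24 and 72 h cannot be told apart in this comparison. Healthy mice had 24.3, 5.85, 15.4 and 15.5 CPM, sham mice at 24 h the values above, and sham mice at 72 h 6.55, 2.02, 1.22 and 2.15 CPM. The log2 differences from healthy were -2.46 ± 0.71 at 24 h (adjusted p = 0.0404, edgeR) and -2.33 ± 0.71 at 72 h (adjusted p = 0.0454), and 0.52 ± 0.62 at 4 h (adjusted p = 0.935), all against the same 4 healthy mice. Plat was the 1 member called at 24 h (6.41% of all genes) and at 72 h (8.44%), and 0 were called at 4 h (0.937%; 0 at an unadjusted p under 0.05 and 0 by DESeq2). Both calls failed in 6 of 8 refits that left out a library, whose adjusted p ran from 0.0159 to 0.138 at 24 h and from 0.0221 to 0.138 at 72 h, and both failed without the filter on low counts (0.066 and 0.0765). Healthy replicate 2 (5.85 CPM) lay within the sham values. The smooth muscle and pericyte markers also differed, at 330.2 to 402 CPM in healthy, 189 to 306 in sham 24 h and 258 to 318 CPM in sham 72 h mice, summed over 8 genes. Proximal tubule markers (46086 to 60551 CPM over the sham mice of both times, 44707 to 45258 in healthy mice, 10 genes) and those of the loop, distal tubule and collecting duct (4343 to 5379 and 3305 to 4008 CPM, 8 genes) were higher in sham mice without overlap, and the part of these 3 lists in the Plat values was not tested. Serpinf2 (lower) and Anxa2 (higher) did not overlap between sham 24 h and healthy mice (15.7% of all genes), and neither passed (adjusted p = 0.114 and 0.307, edgeR).

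Plaur, the urokinase receptor, was low in whole kidney. At 4 h it was at 0.434, 4.00, 3.22 and 1.60 CPM in sham and 5.33, 4.83, 5.76 and 4.04 CPM in CLP mice. All 4 CLP values exceeded the sham values, the nearest by a small margin (4.04 against 4.00 CPM), and the log2 fold change of 1.11 ± 0.47 (SE) did not pass (adjusted p = 0.352, edgeR). At 24 h (1.27 ± 0.51, adjusted p = 0.181) and 72 h (0.75 ± 0.52, adjusted p = 0.615) the groups overlapped. Neutrophils carry this receptor. Summed over 10 genes, neutrophil markers stood at 81.6 to 157 CPM in CLP and 8.35 to 25 CPM in sham whole kidney at 4 h, and their part in the Plaur values was not tested.

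Among the inhibitors, Serpinf2 fell after CLP in whole kidney at 24 and 72 h. At 24 h it was at 219, 231, 262 and 241 CPM in sham and 75.4, 77.9, 107 and 119 CPM in CLP whole kidney, a log2 fold change of -1.33 ± 0.17 (SE; adjusted p = 2.09e-06, edgeR), or 2.52-fold lower. At 72 h sham mice had 280.1, 312, 281 and 227 CPM and CLP mice 61.5, 75.3, 119 and 64.3 CPM, a log2 fold change of -1.78 ± 0.17 (adjusted p = 1.62e-08), or 3.44-fold lower. All CLP values lay below all sham values at both times, and both calls held in each of 8 refits that left out 1 library. At 4 h the groups overlapped (234, 265, 264 and 294 against 267, 340.1, 333 and 266 CPM; 0.19 ± 0.17, adjusted p = 0.849).

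The change in Serpinf2 with CLP at 24 h differed from that at 4 h by -1.52 ± 0.24 on the log2 scale (SE; adjusted p = 0.000202, edgeR). It was 1 of 2 members called for this difference, with S100a10 (1.84% of all genes). Between 72 and 24 h the difference was -0.45 ± 0.24 (adjusted p = 0.647), and 0 members were called (0.509%; only S100a10 had an unadjusted p under 0.05, and DESeq2 was not run on differences between times). The 2 differences share the mice of 24 h.

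Proximal tubule markers were also lower in these CLP mice. Summed over 10 genes they stood at 28402 to 36265 CPM in CLP and 46086 to 54449.8 CPM in sham whole kidney at 24 h, and at 21665 to 25967 and 51490.1 to 60551 CPM at 72 h. In bulk RNA, fewer cells of a type and less RNA per cell cannot be told apart. Per 10000 counts of these markers in the same library, a scale added after the sums had been seen, Serpinf2 was at 24.0 to 41.0 counts in CLP and 42.4 to 49.7 in sham mice at 24 h. That log2 difference of -0.63 was smaller than the one per library (exact permutation p = 0.0286, two-sided, the smallest that 4 against 4 allows; 0.0857 adjusted over 3 times). At 72 h the values were 28.3 to 45.8 and 41.0 to 54.4 counts and overlapped (-0.52, exact permutation p = 0.0571, 0.0857 adjusted). At 4 h the difference was 0.13 (exact permutation p = 0.4).

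Serpine2 rose at 24 h in whole kidney, a call that rested on single libraries. It was at 23, 26.8, 25.3 and 30.7 CPM in sham and 28.9, 44.8, 37 and 87.3 CPM in CLP mice, a log2 fold change of 0.90 ± 0.26 (SE; adjusted p = 0.041, edgeR). CLP replicate 4 was the highest and CLP replicate 1 fell within the sham range, so the groups overlapped. Without CLP replicate 4 the log2 fold change was 0.48 (adjusted p = 0.291), and the call held in 2 of 8 refits that left out a library. At 4 h the values were 21.7, 25, 26 and 24.2 CPM in sham and 47.5, 41.9, 32.3 and 31.5 CPM in CLP mice. These did not overlap, and the log2 fold change of 0.66 ± 0.26 did not pass (adjusted p = 0.296) except with the 8 libraries compared alone (0.65, adjusted p = 0.0326). At 72 h it was 0.62 ± 0.27 (adjusted p = 0.27), with overlap. Fibroblast markers (341 to 420 CPM in CLP, 174 to 324 in sham, 6 genes), monocyte and macrophage markers (272 to 386 and 182 to 258 CPM, 10 genes) and neutrophil markers (85.4 to 147 and 8.06 to 15 CPM, 10 genes) were higher in CLP whole kidney at 24 h without overlap. Their part in the values of Serpine2 or of the other members at 24 h was not tested.

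Of the complex, S100a10 rose at 24 h. It was at 115, 116, 106 and 122 CPM in sham and 201, 252, 255 and 169 CPM in CLP whole kidney. The log2 fold change was 0.93 ± 0.14 (SE; adjusted p = 2.66e-05, edgeR), or 1.91-fold, with no overlap, and the call held in each of 8 refits that left out a library. Sham and CLP values at 4 h were 124, 118, 119 and 116 and 97.1, 133, 125 and 143 CPM, and at 72 h 109, 108, 83.5 and 91 and 128, 121, 113 and 91.4 CPM. Both pairs overlapped, with log2 fold changes of 0.06 ± 0.14 and 0.21 ± 0.14. The change at 24 h exceeded that at 4 h by 0.87 ± 0.19 (adjusted p = 0.0126), and the change at 72 h lay below that at 24 h by a difference that did not pass (-0.72 ± 0.20, adjusted p = 0.101) except without CLP 24 h replicate 4 (-0.83, adjusted p = 0.0237). Markers of injured tubule, summed over 9 genes, also stood higher in CLP at 24 h (826 to 2416 against 383 to 563 CPM), and their part was not tested.

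Anxa2 did not pass at any time. At 24 h it was at 83.7, 78.5, 90.7 and 100.3 CPM in sham and 68.6, 96.9, 68.2 and 146 CPM in CLP whole kidney, a log2 fold change of 0.10 ± 0.22 (SE; adjusted p = 0.892, edgeR). CLP replicate 4 lay above all sham values and CLP replicates 1 and 3 below them.

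The log2 ratio of S100a10 to Anxa2 counts within a library averaged 1.26 ± 0.73 in CLP and 0.38 ± 0.16 in sham whole kidney at 24 h (SD). Its values in CLP mice were 1.55, 1.38, 1.9 and 0.21, so that 3 mice lay above the sham range of 0.23 to 0.57 and CLP replicate 4 just below it. The difference of 0.88 had an exact permutation p of 0.143 (two-sided; 0.214 adjusted over 3 times). Without CLP replicate 4 it was 1.23 (exact permutation p = 0.0286). At 4 h the difference was 0.22 (exact permutation p = 0.143, adjusted 0.214) and at 72 h 0.020 (0.971, adjusted 0.971), and the healthy mean was 0.60 ± 0.28 (SD). The smallest p that 4 mice against 4 can give is 0.0286.

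**Figure D3:**
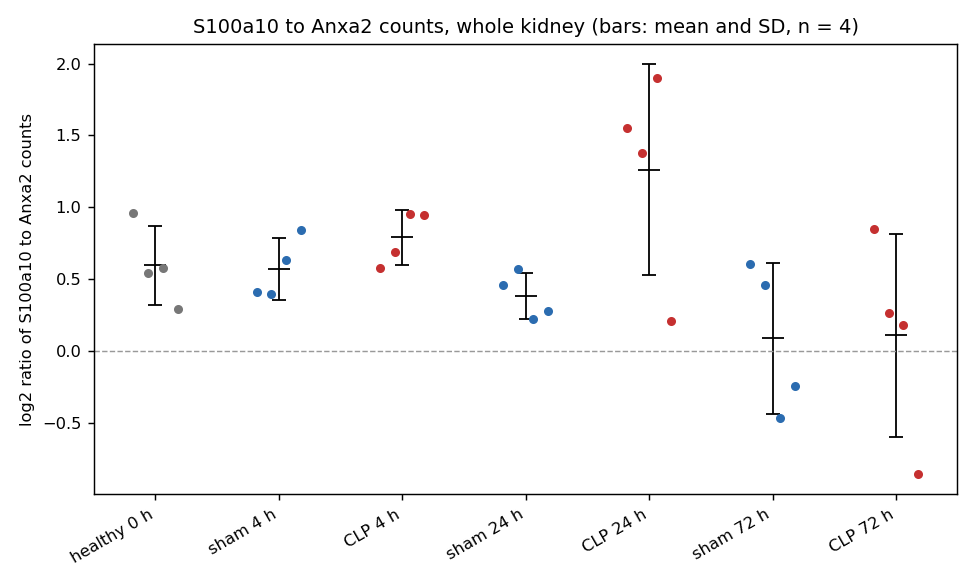
Log2 ratio of S100a10 to Anxa2 counts in whole kidney by group. Each point is 1 mouse, and bars are mean and SD (n = 4). At 24 h 3 of 4 CLP mice lie above the sham range, and 1 lies just below it.

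In the microdissected compartments the members varied more between mice of a group. Against sham, in glomeruli 0 of 7 passed at each time (0.11%, 0.137% and 0.0343% of all genes at 4, 24 and 72 h), with 1, 2 and 1 at an unadjusted p under 0.05 and 0, 1 and 1 by DESeq2. In arterioles 0 passed at each time (0.00821%, 0.0164% and 0%), with 0, 1 and 2 at an unadjusted p under 0.05 and 0, 1 and 1 by DESeq2. In venules 0 passed at each time (0%, 0.0813% and 0.0443%), with 0, 3 and 3 at an unadjusted p under 0.05 and 0, 1 and 3 by DESeq2. The venular DESeq2 calls were Plaur at 24 h, and Plat, Plaur and Serpinf2 at 72 h. Plaur rested on CLP replicate 3 (37 CPM) at 24 h and on CLP replicate 1 (15 CPM) at 72 h. Plat rested mostly on CLP replicate 1 (3.78 CPM). In these calls of Plaur and Plat all sham libraries were at 0. In peritubular capillaries 0 passed at 4 h (0%; 0 unadjusted and 0 by DESeq2) and at 24 h (0.051%; 1 unadjusted and 1 by DESeq2), and 2 at 72 h (22.3%; 3 by DESeq2, which added Plat). Plat there stood at 0.0511 CPM in sham replicate 1, apart from the other sham mice. With a library left out, its fitted log2 fold change ran from -1.35 to 0. In peritubular capillaries at 72 h the median log2 fold change was -1.28 over all genes and -1.08 over the members. The members' median was the fitted value of Plat (-1.08 ± 1.33, SE). Fitted values of the members ran from -11.28 for Serpine2 to 9.52 for Plaur, each with a group at 0. Non-overlapping members numbered 2 in glomeruli at 4 h (4.94% of all genes) and 1 at 72 h (2.85%), 1 in arterioles at 24 h (2.22%), 1 in peritubular capillaries at 24 h (2.67%), and 1 each in venules at 24 h (2.55%) and 72 h (2.53%).

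**Figure D4:**
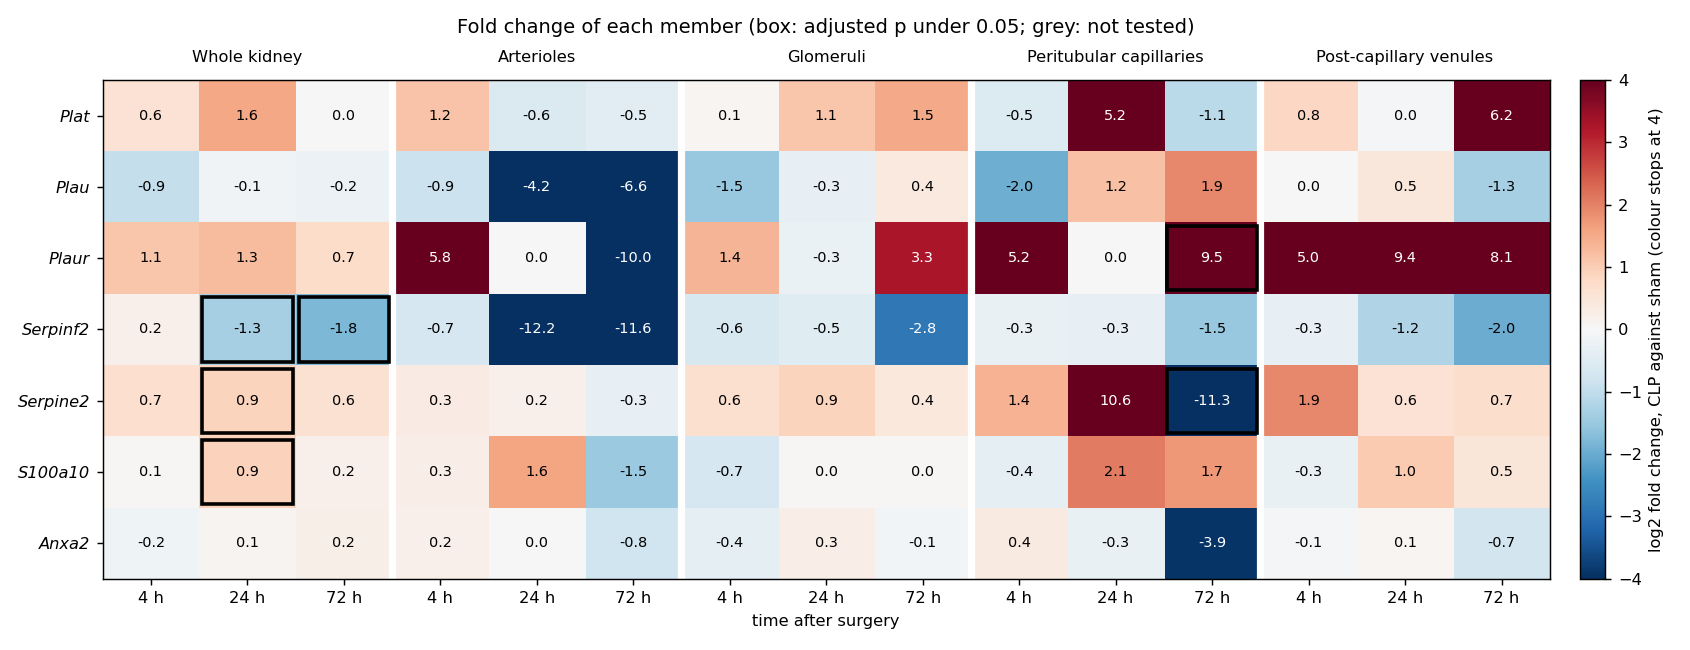
Fitted log2 fold change of CLP against sham for each gene (rows) in each compartment and time (columns). Boxes mark an adjusted p under 0.05, colour stops at 4, and fitted values of a gene with a group at 0 are no bounds on its change. The boxes lie in whole kidney at 24 and 72 h and in peritubular capillaries at 72 h.

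In glomeruli, where Plat was highest, it was at 66.7, 40.8, 17.8 and 69.6 CPM in sham and 103, 218, 119.5 and 118 CPM in CLP mice at 72 h. These did not overlap, and the log2 fold change of 1.52 ± 0.46 (SE) did not pass with edgeR (adjusted p = 0.389) but did with DESeq2 (adjusted p = 0.0283). Podocyte markers (6578 to 11042 CPM in CLP, 7126 to 11057 in sham, 6 genes) and endothelial markers (3554 to 6198 and 3951 to 6154 CPM, 10 genes) overlapped at this time. Neutrophil markers (3516 to 5326 CPM in CLP, 9.82 to 127 in sham, 10 genes) and monocyte and macrophage markers (608 to 1506 and 379 to 467 CPM, 10 genes) were higher in CLP, and erythrocyte and platelet markers (2516 to 7578 and 8955 to 19002 CPM, 6 genes) lower, each without overlap. Their part in the Plat values was not tested. At 24 h glomerular Plat was at 77, 91.3, 113 and 67.9 CPM in sham and 139, 87.5, 231 and 289 CPM in CLP mice, and at 4 h both groups were high (1050.1, 419, 479.7 and 633 against 956, 374, 989 and 432 CPM). In sham and CLP mice, glomerular Plat at 24 and 72 h lay below that at 4 h, a difference that was not tested. It runs with the lower number of genes detected at 24 and 72 h (8870 to 12726 against 12897 to 15114 at 0 and 4 h). Healthy glomeruli, with 12897 to 14164 genes detected, had 146, 426, 141 and 58.9 CPM of Plat on the scale of the healthy libraries, most of them below the values at 4 h.

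Glomerular Plau at 4 h was lower in all CLP mice (25, 15.8, 22.5 and 18.5 CPM) than in all sham mice (32.6, 75.8, 28.7 and 94.4 CPM), the same direction as in whole kidney, with -1.50 ± 1.22 on the log2 scale (adjusted p = 1, edgeR). Serpine2 at 4 h was higher in all CLP glomeruli (505, 520.4, 535 and 738 CPM) than in sham glomeruli (361, 323, 438 and 346 CPM; 0.65 ± 0.29, adjusted p = 0.893). At 24 h it was at 666, 1179.9, 1310.4 and 1277 CPM in CLP and 369.8, 823, 568 and 613 CPM in sham glomeruli, with overlap, and passed with DESeq2 (adjusted p = 0.0303) but not edgeR (adjusted p = 0.303). Endothelial markers in glomeruli at 24 h were 5222 to 5999.6 CPM in CLP and 3350.5 to 4610.1 CPM in sham mice. Neutrophil and injured tubule markers were also higher there, and those of the proximal tubule (1514 to 9062 against 9795 to 17679 CPM) and of the loop, distal tubule and collecting duct lower, all without overlap, and the part of these lists was not tested. At 4 h neutrophil (1282 to 2636 against 45.1 to 219 CPM) and injured tubule markers (434 to 1176 against 332 to 390 CPM) were higher in CLP glomeruli, likewise not tested.

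Glomerular Plaur at 72 h was at 0, 11.8, 0 and 0 CPM in sham and 35.4, 31.7, 9.06 and 38.9 CPM in CLP mice. Only sham replicate 2 held counts, and it exceeded 1 CLP value, so the groups overlapped (adjusted p = 0.77, edgeR). Neutrophil markers in the same libraries stood at 9.82 to 127 CPM in sham and 3516 to 5326 CPM in CLP glomeruli, and their part was not tested.

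**Figure D5:**
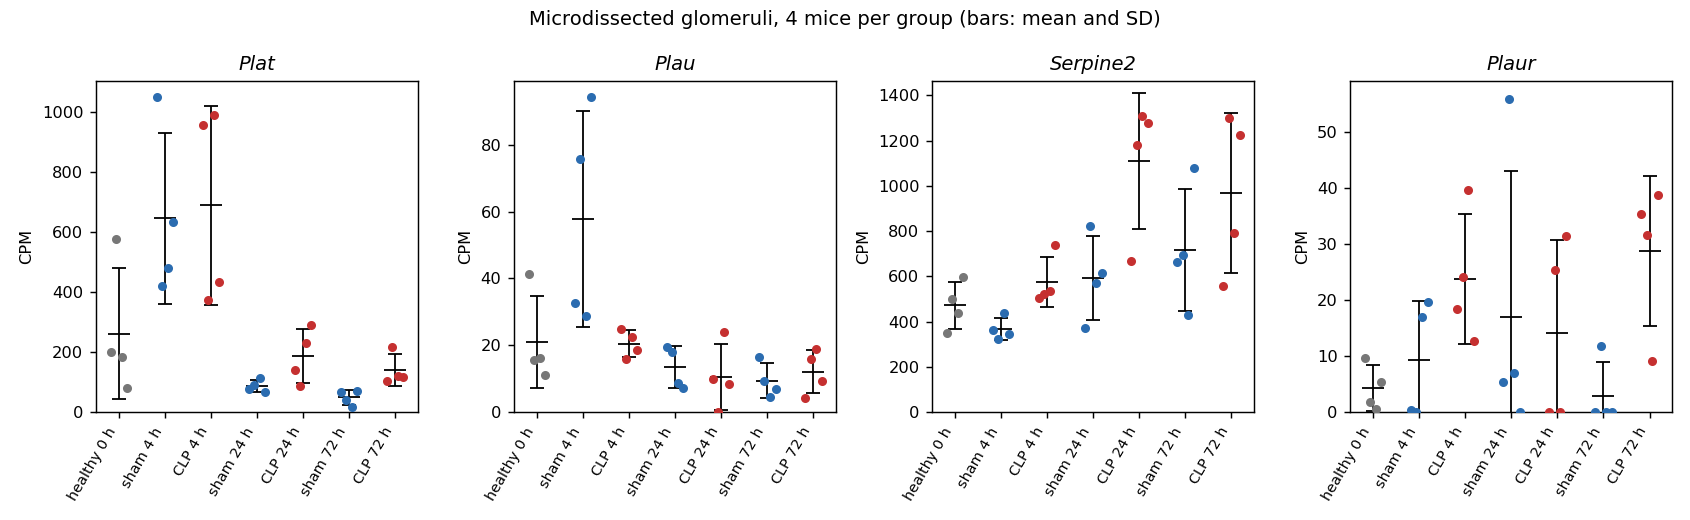
Plat, Plau, Serpine2 and Plaur in microdissected glomeruli by group. The y axis is CPM, each point is 1 mouse, and bars are mean and SD (n = 4). Plat of CLP mice lies above sham at 72 h, and Plau of CLP mice lies below sham at 4 h.

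In the libraries of peritubular capillaries, Serpine2 was found in every CLP mouse at 24 h and in none at 72 h. At 24 h it was at 0, 0, 0.279 and 0 CPM in sham and 171, 43.8, 86.3 and 235 CPM in CLP mice, with no overlap. The 4 sham libraries held 3 counts in all and the CLP libraries 4771, a ratio per scaled count of 1865 with a 95% exact interval of 638 to 9047 for counting error only. Healthy peritubular libraries held 11.1 to 25.8 CPM of Serpine2 on the scale of the healthy libraries, with 11443 to 13121 genes detected. At 24 h genes detected numbered 6827 to 9044 in sham and 5358 to 7811 in CLP libraries, and the part of this lower number was not tested. The edgeR test did not pass (adjusted p = 0.112), and DESeq2 gave an adjusted p of 1.39e-10. At 72 h the sham values were 23.7, 111, 0 and 1.81 CPM and all 4 CLP libraries were at 0, so that the CLP mean was at least 108-fold lower at a floor of 3 counts per library (adjusted p = 0.0243, edgeR). Sham replicate 2 carried most of that mean, and without it the CLP mean was at least 26.97-fold lower. One sham library was also at 0, and the call held in 5 of 8 refits that left out a library, lost without CLP replicate 1, 3 or 4 (adjusted p up to 0.055). The CLP libraries at 72 h are those with few genes detected, and proximal tubule markers in them summed to 24389.9 to 31512 CPM against 62958 to 93796 CPM in sham, whose part was not tested.

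Plaur was called in peritubular capillaries at 72 h (adjusted p = 0.0466, edgeR) from 1 library. CLP replicate 4 held 40.3 CPM and the other 7 libraries of the comparison were at 0. Without CLP replicate 4 no counts remained, and the call failed in each of 8 refits that left out a library.

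The change of Serpine2 with CLP differed between the 4 microdissected compartments at 24 h (adjusted p = 4e-13) and at 72 h (adjusted p = 0.000144), by 3 interaction terms tested together in edgeR with the mouse as a block. Serpine2 values in arterioles were 439, 207, 481 and 273 CPM in sham and 418, 166, 82.7 and 957 CPM in CLP mice at 24 h, with overlap. Serpinf2 also differed between compartments at 24 h (adjusted p = 0.0188), so that 2 members were called at 24 h (0.161% of all genes), 1 at 72 h (1.48%) and 0 at 4 h (0.021%; 0 at an unadjusted p under 0.05, and DESeq2 was not run). The calls of Serpine2 and Serpinf2 at 24 h and of Serpine2 at 72 h held in each of 8 refits that left out a mouse. In each case 1 compartment had a group at or near 0, which for Serpine2 was peritubular capillaries.

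For Serpinf2 at 24 h that compartment was arterioles, where sham mice had 39.9, 63.8, 0 and 128 CPM and all 4 CLP libraries were at 0, at least 287-fold lower at the same floor (at least 171-fold without sham replicate 4). Sham replicate 3 was at 0 too, so the groups overlapped, and edgeR gave an adjusted p of 0.183 within arterioles, DESeq2 2.65e-09. At 72 h arteriolar Serpinf2 was at 145, 135, 108 and 0 CPM in sham and 0.0692, 0, 0 and 0 CPM in CLP mice, where the CLP libraries held 1 count in all. Proximal tubule markers in arterioles summed to 2624 to 7623 CPM in sham and 124 to 2585 CPM in CLP mice at 24 h, and their part was not tested.

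In venules Serpinf2 was lower in all CLP mice at 72 h (46.7, 69.7, 39.3 and 55.5 CPM) than in all sham mice (149, 266, 263 and 161 CPM), with -1.99 ± 0.55 on the log2 scale (adjusted p = 0.264, edgeR; 0.00472, DESeq2). Tubule markers there were 14656 to 21354 CPM in CLP and 29195 to 42441 CPM in sham mice. In peritubular capillaries, the richest in tubule markers, Serpinf2 overlapped between groups at 24 h (289, 65.8, 359 and 269 CPM in sham, 451, 19.6, 195 and 124 CPM in CLP) and at 72 h (548, 285, 201 and 359.6 and 3.08, 281, 197 and 5.41 CPM).

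S100a10 was higher in all CLP than all sham libraries at 24 h in venules (260.3, 154, 233 and 155 against 50.7, 116, 95.2 and 129 CPM) and in arterioles (106, 108, 100.2 and 140.3 against 13, 39, 99.9 and 0 CPM). In arterioles the nearest values differed by a small margin (100.2 against 99.9 CPM), and 1 sham library was at 0. The log2 fold changes in venules and arterioles were 1.04 ± 0.50 (adjusted p = 0.449, edgeR) and 1.58 ± 1.10 (adjusted p = 0.662). In glomeruli the log2 fold change was 0.05 ± 0.41 (adjusted p = 1), and in peritubular capillaries 2.08 ± 1.57 (adjusted p = 0.645, edgeR), both with overlap. Injured tubule markers in venules at 24 h were 1257 to 2413 CPM in CLP and 644 to 1131 CPM in sham mice, and their part was not tested. The change of S100a10 with CLP at 24 h was not shown to differ between compartments (adjusted p = 1, edgeR interaction).

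Summing the 4 microdissected libraries of a mouse gave 0 members called at each time (0.0832%, 0.541% and 0.428% of all genes at 4, 24 and 72 h), with 0, 2 and 2 at an unadjusted p under 0.05 and 0, 1 and 2 by DESeq2. At 72 h summed Serpinf2 was at 267, 188, 193 and 119.6 CPM in sham and 13.7, 83, 72.2 and 21.4 CPM in CLP mice (-2.01 ± 0.51, adjusted p = 0.0659, edgeR), and it passed without the filter on low counts (-2.0, adjusted p = 2.11e-05). Summed Plat at 72 h was at 18.3, 8.77, 8.93 and 18 CPM in sham and 22.6, 73.4, 36.8 and 30.8 CPM in CLP mice (1.60 ± 0.45, adjusted p = 0.104; 1.62 and 0.0315 without the filter). Members without overlap were Serpine2 and Plaur at 4 h (both higher, 4.93% of all genes), Plat and S100a10 at 24 h (both higher, 4.88%), and Plat (higher) and Serpinf2 (lower) at 72 h (3.8%).

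A list of 24 other genes of the plasminogen system, of which 19 were tested in whole kidney, gave 1 higher and 0 lower at 4 h, 4 higher and 0 lower at 24 h, and 3 higher and 2 lower at 72 h with edgeR. Over all genes 2.24%, 5.28% and 3.89% were called at these times. The list's median log2 fold changes were 0.056, 0.12 and 0.11. At 4 h Thbd (thrombomodulin, which turns thrombin towards anticoagulant activity) rose by 0.92 ± 0.19 (log2, SE). At 24 h Itgam and Itgb2 (the chains of a leukocyte integrin) rose by 3.49 ± 0.40 and 1.61 ± 0.44, Serping1 (an inhibitor of complement and contact proteases) by 0.54 ± 0.13 and Lrp1 (a clearance receptor for protease complexes) by 0.57 ± 0.16. At 72 h Itgam, Itgb2 and Serping1 were again higher (3.87 ± 0.44, 1.88 ± 0.46 and 0.69 ± 0.13), and Pzp (a broad protease inhibitor of plasma) fell by 2.71 ± 0.25. Itgam and Itgb2 are leukocyte genes, and monocyte and macrophage markers, summed over 10 genes, stood at 471 to 697 CPM in CLP and 175 to 230.3 CPM in sham whole kidney at 72 h.

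In the microdissected compartments 14 or 15 of the 24 were tested for CLP against sham. The list gave 1 call in glomeruli at 24 h (0.137% of all genes), where Lrp2 (the endocytic receptor megalin of proximal tubule) fell by 2.06 ± 0.45 (log2, SE). In peritubular capillaries at 72 h Pzp and Thbd were called lower. In that comparison 22.3% of all genes were called, 2413 of 2625 of them lower, and the median log2 fold change over all genes was -1.28. For CLP against sham, none of the list was called in arterioles or venules (0% to 0.0813% of all genes). The summed libraries gave 1 call, Itgam, which was higher at 72 h (0.428%). Between healthy compartments 13 of the list were tested. Calls numbered 6 in arterioles (7.32% of all genes), 4 in peritubular capillaries (6.14%), 1 in glomeruli (4.19%) and 0 in venules (0.591%).

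Over the 28 whole kidney libraries, the genes whose log2 CPM followed each member most closely among 10368 were described by Pearson's r. They were Iscu, Txnip and Srgn for Plat (0.94, 0.94 and 0.94) and Klhl9, Hexim1 and Igip for Plau (0.95, 0.91 and 0.91). For Plaur they were Gm13889, Ifrd1 and Cpne8 (0.74, 0.73 and 0.73), and for Serpinf2 Cndp2, Acy3 and Inmt (0.94, 0.94 and 0.93). Serpine2 was followed by Rhog, Ifitm2 and Ifitm3 (0.89, 0.87 and 0.86), S100a10 by Apoh, Chp1 and Mgst1 (0.85, 0.83 and 0.83), and Anxa2 by Rit1, Phf21a and Ctc1 (0.85, 0.83 and 0.83). Between members, r was highest for Plat with Plau (0.62) and lowest for Plau with Anxa2 (-0.66), and for the partners S100a10 and Anxa2 it was -0.10. The points share 7 groups and 1 scaling, so that differences between groups enter every value.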

How the data were processed

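RNA-seq counts of 7 genes were analysed in 140 libraries (28 mice, 5 compartments). The file the authors deposited holds raw counts of 34255 Ensembl genes, unnormalised whole numbers. Per the submitters' processing notes, STAR 2.7, HTSeq 0.13, featureCounts, SAMtools 1.9, FastQC 0.11.8 and MultiQC 1.7 were used, with builds GRCm38.p6 and GRCm39. Which build and which counter gave the table, and its use of strand, are not given in the sources used here. Groups follow the labels, by which healthy mice are at 0 h (a row of the table has 4 h).

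In R 4.3.3, the 28 libraries of each compartment were fitted together with edgeR 4.0.16 (TMM, filterByExpr by group, robust quasi-likelihood F test, two-sided), with Benjamini-Hochberg adjustment over all genes and a threshold of 0.05. Healthy compartments (16 libraries) and interactions (32 libraries per time) had the mouse as a block. CPM refer to the TMM-scaled total of the fit. The ratio of S100a10 to Anxa2 used a prior count of 0.5 and exact permutation. Alternatives were DESeq2 1.42.0, RLE size factors, no filter, the 8 libraries alone, the replicate block and libraries left out. The fits were run on simulated data. For the microdissected compartments the simulated spread was below that of the real libraries, and no group was set to 0. That run therefore does not cover microdissected calls with a group at or near 0. Folds against a group at 0 use a floor of 3 counts per library, and floors and intervals cover counting error only, since reads carry no molecular identifiers. P-values measure the spread between the mice of these groups.

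The members, marker lists, pathway list and tests were chosen with earlier results of these data known. All 7 members were named in every comparison, pathway genes where called (at most 4 of smallest adjusted p; 1 further gene of that list is not reported here), and the 3 genes closest to each member by Pearson's r of log2 CPM (prior count 2) among genes of at least 5 CPM. Positions are from GENCODE M21 (GRCm38) and promoters from RefSeq (GRCm38.p6).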

Additional observations from a re-analysis of the deposited data

Results flagged for a closer look

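A mouse far from the other 3 of its group (a gap to the nearest value, as a share of the group's range in CPM, above Dixon's 95% limit for 4 samples) was found in 45 of 233 groups of 4 values that were not all at 0. Chance gives about 1 in 20 groups only for normally distributed values, and CPM were not checked for this. Many of the 45 groups held 0 or a few counts in the other mice. Where every library had at least 10 counts, a limit set after the values had been seen, 18 of 169 groups had such a mouse.

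In whole kidney, Plat stood apart in CLP 24 h replicate 1 (21.2 CPM). In whole kidney, Plau stood apart in healthy 0 h replicate 1 (157 CPM) and sham 72 h replicate 1 (98 CPM). In whole kidney, Plaur stood apart in healthy 0 h replicate 3 (2.41 CPM). In whole kidney, Serpine2 stood apart in sham 72 h replicate 4 (33.4 CPM).

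In arterioles, Plat stood apart in healthy 0 h replicate 3 (36.7 CPM) and sham 24 h replicate 2 (73.8 CPM). In arterioles, Plau stood apart in CLP 4 h replicate 1 (2.97 CPM), sham 24 h replicate 3 (2.28 CPM), CLP 24 h replicate 1 (0.0807 CPM), sham 72 h replicate 2 (11.7 CPM) and CLP 72 h replicate 1 (0.0692 CPM). In arterioles, Plaur stood apart in healthy 0 h replicate 2 (6.53 CPM), CLP 4 h replicate 3 (27.1 CPM) and sham 72 h replicate 2 (51.3 CPM). In arterioles, Serpinf2 stood apart in CLP 72 h replicate 1 (0.0692 CPM). In arterioles, S100a10 stood apart in healthy 0 h replicate 2 (427 CPM) and CLP 72 h replicate 1 (29.6 CPM).

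In glomeruli, Plat stood apart in CLP 72 h replicate 2 (218 CPM). In glomeruli, Plaur stood apart in sham 24 h replicate 2 (55.9 CPM) and sham 72 h replicate 2 (11.8 CPM). In glomeruli, Serpinf2 stood apart in CLP 24 h replicate 3 (138 CPM). In glomeruli, Serpine2 stood apart in CLP 4 h replicate 4 (738 CPM). In glomeruli, S100a10 stood apart in healthy 0 h replicate 3 (398 CPM).

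In peritubular capillaries, Plat stood apart in healthy 0 h replicate 1 (17 CPM), CLP 4 h replicate 4 (19.1 CPM), sham 24 h replicate 1 (1.34 CPM), CLP 24 h replicate 2 (51.1 CPM) and sham 72 h replicate 1 (0.0511 CPM). In peritubular capillaries, Plau stood apart in sham 24 h replicate 3 (66.3 CPM) and CLP 72 h replicate 2 (276 CPM). In peritubular capillaries, Plaur stood apart in healthy 0 h replicate 2 (7.45 CPM) and CLP 72 h replicate 4 (40.3 CPM). In peritubular capillaries, Serpine2 stood apart in sham 24 h replicate 3 (0.279 CPM). In peritubular capillaries, S100a10 stood apart in sham 4 h replicate 4 (55.6 CPM). In peritubular capillaries, Anxa2 stood apart in CLP 72 h replicate 4 (13.6 CPM).

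In venules, Plat stood apart in CLP 72 h replicate 1 (3.78 CPM). In venules, Plau stood apart in sham 24 h replicate 4 (57.8 CPM). In venules, Plaur stood apart in sham 4 h replicate 4 (5.10 CPM), CLP 24 h replicate 3 (37 CPM) and CLP 72 h replicate 1 (15 CPM). In venules, Serpinf2 stood apart in CLP 24 h replicate 4 (115 CPM). In venules, S100a10 stood apart in healthy 0 h replicate 3 (244 CPM). In venules, Anxa2 stood apart in healthy 0 h replicate 3 (289.8 CPM) and sham 72 h replicate 3 (337 CPM).

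The change with CLP differed between times in whole kidney for Serpinf2 (24 h less 4 h, -1.52 on the log2 scale) and S100a10 (0.87), each by a test of the difference in edgeR. Between the microdissected compartments it differed for Serpinf2 at 24 h (adjusted p = 0.0188) and for Serpine2 at 24 h (adjusted p = 4.00e-13) and 72 h (adjusted p = 0.000144), by edgeR's test of the interaction terms. The 3 values rest on compartments with groups at or near 0, namely arterioles for Serpinf2 and peritubular capillaries for Serpine2.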

How the results depend on the processing

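The fall of Serpinf2 in whole kidney at 24 and 72 h and the rise of S100a10 at 24 h passed under each refit of the per-library values (DESeq2, RLE size factors, no filter, the 8 libraries alone, the replicate block and each library left out). Per proximal tubule marker count, an alternative added after seeing the data, Serpinf2 was -0.63 at 24 h and -0.52 at 72 h (exact permutation p = 0.0286 and 0.0571), and with p adjusted over 3 times (0.0857 at both) neither passed. Single genes kept their side of the threshold in 363 refits, lost it in 41 and gained it in 20, and none changed sign. Among 1908 refits of member values that were never called, 111 had the other sign. Of 264 counts with a library or mouse left out, 234 stayed within 1.5 times.

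Counts of members called moved as follows. With the 8 libraries alone, whole kidney at 4 h gave 2 and peritubular capillaries at 72 h 0. DESeq2 gave 1 in arterioles at 24 and 72 h, 1 in glomeruli at 24 and 72 h, 1 in peritubular capillaries at 24 h and 3 at 72 h, 1 in venules at 24 h and 3 at 72 h, and 1 and 2 in the summed libraries at 24 and 72 h. Without the filter, sham against healthy gave 0 at 24 and 72 h, peritubular capillaries at 72 h 1, and the summed libraries at 72 h 2 (added after seeing the data). RLE size factors gave 1 in peritubular capillaries at 72 h. The replicate block gave 1 there, with Plaur lost at 7.77 (adjusted p = 0.229), and changed no other call between CLP and sham. Same-numbered CLP and sham mice correlated over 0.1 in 0, 3 and 2 of 4 whole kidney pairs at 4, 24 and 72 h. Elsewhere 0 pairs did. The highest r in whole kidney was 0.468 at 24 h and 0.347 at 72 h. Mice of different numbers were not compared, so these values cannot decide whether the numbers pair the mice.

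With single libraries or mice left out, counts ran from 0 to 1 for the difference between 72 and 24 h, for sham against healthy at 24 and 72 h, for peritubular capillaries at 72 h and for the summed libraries at 72 h, and from 1 to 2 for the interaction at 72 h. The log2 ratio of S100a10 to Anxa2 ran from 0.66 to 1.23 at 24 h and from -0.23 to 0.34 at 72 h, where its sign turned in 5 of 8 refits (-0.23, -0.033, -0.003, -0.17 and -0.092). The cause of these moves was not tested. Sparse counts limit the microdissected compartments: a library with 0 counts allows up to 3.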
